A study of Mus musculus with 7 samples.

Results

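Among the T cells of the inflamed mouse central nervous system, 318 cells carried UMIs of Ccl1 or Nrgn and made up 7.56% of the 4206 T cells that could have been picked. The 7 libraries together held 13922 cell barcodes, of which 13632 passed the quality limits (at least 200 genes and at most 10% mitochondrial UMIs). A UMI is a molecular tag that counts 1 captured RNA molecule. A barcode counted as a T cell with at least 2 UMIs of Cd3d, Cd3e and Cd3g, which encode chains of the T cell receptor complex, and at most 120 UMIs of Lyz2, C1qb and Cd74 per 10000. T cells with any UMI of Ikzf2 (Helios, frequent in regulatory T cells), Cd8a, Cd8b1 or Cd163l1 (a receptor of gamma delta T cells) were set aside. Members were selected on the measured UMIs of Ccl1 and Nrgn, of which they needed at least 2 together, and the other 3888 eligible cells are called the remaining T cells.

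The mice were of the B6 background and had experimental autoimmune encephalomyelitis induced with the myelin peptide MOG35-55. Their central nervous system was taken at the peak of disease, and cells were enriched with beads for CD4 or for CD45, the pan-leukocyte marker. Control mice are labelled Lag3wt and LAG3-deficient mice Lag3Floxed. The groups are WT_CD4 and Lag3KO_CD4 with 2 libraries each, WT_CD45 with 2 and Lag3KO_CD45 with 1. The labels give 5 mice per group but not which mice are in which library, and name no Cre line for the floxed allele. Whether libraries came from separate mice is therefore unknown, and every p-value measures the spread between libraries, which may be technical.

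CCL1 is a small secreted chemokine made by activated T cells and mast cells, and its receptor is CCR8. Neurogranin, the product of Nrgn, is a calmodulin-binding protein best known from neurons, where it sets how much free calmodulin is available to calcium signals. In T cells, engagement of the receptor raises calcium, calmodulin then activates the phosphatase calcineurin, and NFAT factors enter the nucleus and turn on cytokine genes. Ramp1 encodes a subunit that makes the calcitonin receptor-like receptor a receptor for the neuropeptide CGRP, and Rilpl2 encodes a RILP-like protein of Rab-dependent transport.

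The 250 bases before the start of both defining genes are shown because these are the genes that picked the cells. The sequences are RefSeq's for GRCm38.p6, on the gene's own strand, with matches to GGAAA, the core of NFAT sites, or its reverse complement TTTCC in capitals. Ccl1 lies on the minus strand at chr11:82179813-82180062 and Nrgn on the minus strand at chr9:37552746-37552995.
Ccl1: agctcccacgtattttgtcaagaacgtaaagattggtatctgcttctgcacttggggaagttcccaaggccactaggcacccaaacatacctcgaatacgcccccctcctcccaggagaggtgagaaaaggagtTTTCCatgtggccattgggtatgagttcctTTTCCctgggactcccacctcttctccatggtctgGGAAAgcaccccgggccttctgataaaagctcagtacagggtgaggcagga
Nrgn: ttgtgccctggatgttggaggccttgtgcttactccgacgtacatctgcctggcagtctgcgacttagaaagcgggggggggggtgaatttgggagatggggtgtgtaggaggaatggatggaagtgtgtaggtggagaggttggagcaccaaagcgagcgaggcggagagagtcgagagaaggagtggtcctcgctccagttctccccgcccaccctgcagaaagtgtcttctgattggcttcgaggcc
The Ccl1 window held 3 such matches, 1 of them in the forward direction, and the Nrgn window held 0. The window of Ramp1 held 2 and that of Rilpl2 held 4. GGAAA occurred on either strand in 55.6% of the 32851 promoter windows of this length. None of the 4 windows held the AP-1 letters TGANTCA (either strand, in 6.75% of windows) or the EGR letters GCGTGGGCG (either strand, in 0.536%).

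Library totals ran from 4585251 to 18940186 UMIs over 1428 to 2517 barcodes, and the CD45 libraries were the deeper ones. The CD45 files list 28692 genes and the CD4 files 27998, so sort and processing cannot be told apart. Pairs of libraries shared 0 to 12 barcodes, and no barcode was a member in both libraries of a pair. Lag3, the targeted gene, went against 1 label. The library labelled WT_CD45 2 held 4 Lag3 UMIs in all, against 304 in WT_CD45 1 and 2 in Lag3KO_CD45 1. Values for the control group are given with this library as labelled, and the comparisons of genotypes over both sorts also without it.

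Members were found in every library, at shares that differed widely within groups. In the CD4 libraries they were 55 of 1008 eligible T cells in WT_CD4 1 (5.46%, 95% exact binomial interval 4.14 to 7.04), 9 of 744 in WT_CD4 2 (1.21%, 0.555 to 2.28), 100 of 734 in Lag3KO_CD4 1 (13.6%, 11.2 to 16.3) and 5 of 1062 in Lag3KO_CD4 2 (0.471%, 0.153 to 1.10). In the CD45 libraries they were 39 of 192 in WT_CD45 1 (20.3%, 14.9 to 26.7), 76 of 269 in the library labelled WT_CD45 2 (28.3%, 23.0 to 34.0) and 34 of 197 in Lag3KO_CD45 1 (17.3%, 12.3 to 23.3). All 3 CD45 libraries lay above all 4 CD4 libraries, and the replicates of each CD4 group did not overlap in their intervals. These intervals cover counting error only.

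**Figure D1:**
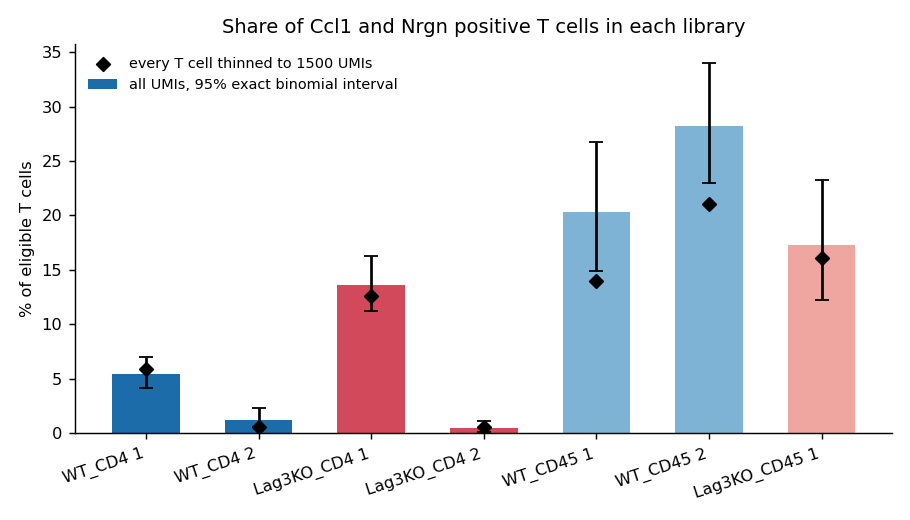
Share of members among eligible T cells (y axis, %) in each of the 7 libraries (x axis). Bars are the shares with 95% exact binomial intervals, and diamonds are the shares after every T cell was thinned to 1500 UMIs. The CD45 bars stand between 17.3% and 28.3%, and the CD4 bars between 0.471% and 13.6%.

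The 2 LAG3-deficient CD4 libraries held the highest and the lowest CD4 share. The group means were 3.33% ± 3.0 (SD, n = 2) in WT_CD4, 7.05% ± 9.30 (SD, n = 2) in Lag3KO_CD4 and 24.3% ± 5.61 (SD, n = 2) in WT_CD45. Averaged within sort, LAG3-deficient libraries were 1.65 percentage points below control libraries (two-sided exact permutation within sort, p = 0.722 over 18 arrangements, of which the smallest possible is 0.0556). Within the CD4 sort the difference was 3.71 points and within the CD45 sort -7.02 points (exact permutation p = 1 and 0.667, where the smallest possible are 0.167 and 0.333, so neither could pass). Without the library labelled WT_CD45 2 the difference was 0.330 points (exact permutation p = 1). The difference was therefore smaller than the spread between libraries of a group and had no stable direction.

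Members carried more RNA than the remaining T cells. Their median UMI count was 3990, 4818, 4435 and 3650 in the CD4 libraries in the order above, against 2023, 2373, 2153.5 and 1966 in the remaining T cells. In the CD45 libraries it was 4509, 3708.5 and 5140, against 3411, 3262 and 3407. A deeper cell more easily reaches 2 UMIs of a gene, so each T cell was also thinned to 1500 UMIs and the rule applied again. The shares were then 5.90%, 0.567%, 12.6% and 0.600% in the CD4 libraries and 14.0%, 21.1% and 16.1% in the CD45 libraries. Cells under 1500 UMIs were dropped, and a thinned cell could lose its UMIs of Ikzf2 or another gene of the rule. Eligible T cells of the CD45 libraries rose from 192, 269 and 197 to 200, 285 and 218. Thinned values are therefore not those of the same cells at equal depth.

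Most members were well inside the threshold. Only 32 of the 318 held exactly 2 UMIs of Ccl1 and Nrgn, while 120 eligible T cells held 1 UMI and stayed outside. The median member held 16, 3, 9 and 26 UMIs of the pair in the CD4 libraries and 10, 13 and 20 in the CD45 libraries. Ccl1 was far more uneven than Nrgn. The highest cell of each library held 83 to 379 Ccl1 UMIs, but 7 to 67 Nrgn UMIs. Levels are given as CPM, the UMIs of a gene per 1000000 UMIs of the class in that library. Members pooled per library contained 9811, 3463, 3681 and 10870 CPM of Ccl1 in the CD4 libraries and 1377, 2608 and 3286 in the CD45 libraries. For Nrgn the same values were 1554, 363, 1057 and 1199 in the CD4 libraries and 1783, 2772 and 2828 in the CD45 libraries. Ccl1 was thus the larger of the pair in all 4 CD4 libraries and in Lag3KO_CD45 1. Nrgn was the larger in the other 2 CD45 libraries. The rule fixed that both genes are high here, so no test was made.

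Ccl1 and Nrgn overlapped in part. Of the 318 members, 127 held both transcripts, 50 held Ccl1 without Nrgn and 141 held Nrgn without Ccl1. Among all eligible T cells, Ccl1 was found in 23 of 53 Nrgn positive cells of WT_CD4 1 (43.4%), against 2.62% of the Nrgn negative cells. The corresponding shares were 49.5% and 5.07% in Lag3KO_CD4 1, 27.3% and 0.666% in Lag3KO_CD4 2, 36.6% and 3.97% in WT_CD45 1, 28.2% and 5.98% in that labelled WT_CD45 2, and 26.2% and 5.16% in Lag3KO_CD45 1. WT_CD4 2 was the exception, with 0 of 10 Nrgn positive cells carrying Ccl1, against 0.545% of its Nrgn negative cells. Nrgn-only members were 16 of 55, 5 of 9, 32 of 100 and 1 of 5 in the CD4 libraries and 20 of 39, 47 of 76 and 20 of 34 in the CD45 libraries.

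**Figure D2:**
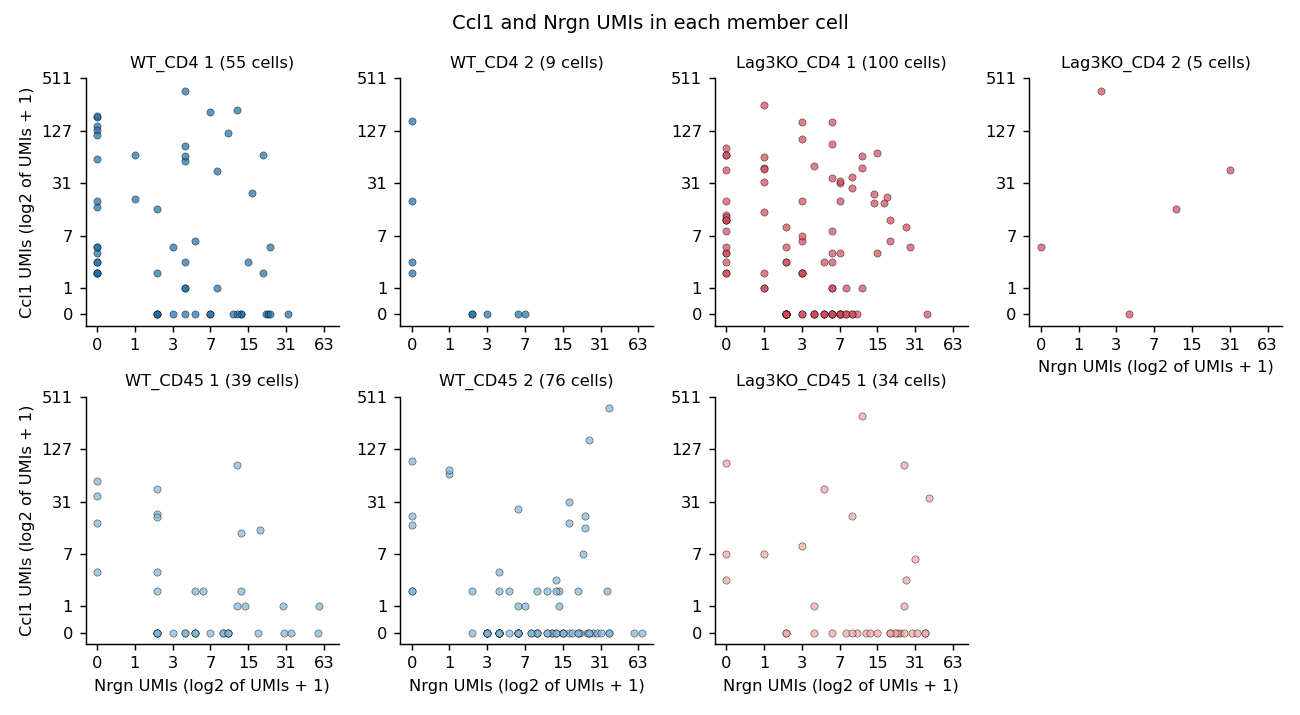
UMIs of Nrgn (x axis) and Ccl1 (y axis) in each of the 318 member cells, 1 panel per library, on axes spaced as log2 of UMIs + 1. Points on an axis hold only 1 of the transcripts, and the highest cells reach 379 Ccl1 and 67 Nrgn UMIs.

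Myeloid barcodes without Cd3 UMIs held almost none of either transcript. Myeloid barcodes, taken as those with no Cd3 UMI and over 120 Lyz2, C1qb and Cd74 UMIs per 10000, had median depths of 3470 to 6081 UMIs. In the CD4 libraries 0 of 109, 84, 175 and 129 of them reached 2 UMIs of Ccl1 and Nrgn, which allows shares of up to 2.75%, 3.57%, 1.71% and 2.33%. In the CD45 libraries it was 1 of 1074 (0.0931%), 2 of 1016 (0.197%) and 0 of 1127 (up to 0.266%). A short list of 6 neuron and glia genes was read as well, and says nothing about other neuronal genes. Of this list, Snap25, Slc1a2, Camk2a and Syt1 were at 0 in the members of every library, and Mbp was found at 24.5 to 99.95 CPM. The remaining T cells of all libraries together also held only 2, 5, 3 and 0 UMIs of the former genes.

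The label of a T cell was checked against markers of cell types, and activation genes are described further below. Cd4 was present in the members of every library, at 307, 290, 290 and 175 CPM in the CD4 libraries and 363, 376 and 339 in the CD45 libraries. In the remaining T cells the range was 161 to 261. T cell receptor constant genes were listed in the CD45 files alone: Trac was found in 39 of 39, 73 of 76 and 34 of 34 members, and Trdc in 1, 0 and 1. Foxp3, the defining factor of regulatory T cells, had 1 UMI each in 2 libraries and 0 in the other 5. The sum of 10 regulatory T cell (Treg) markers was 1675, 1015, 1089 and 825 CPM in members of the CD4 libraries and 898, 1043 and 1169 in those of the CD45 libraries. In the remaining T cells it was lower, at 753, 696, 850 and 766 and at 647, 616 and 596. Of 4 Treg genes tested against the remaining T cells, Capg was higher and Izumo1r lower, each in 7 of 7 libraries. The natural killer marker Ncr1 and the mast cell and basophil markers Mcpt8, Cpa3, Fcer1a and Ms4a2 were at 0 in the members of every library. The sum of 5 natural killer markers was 8.63, 0, 53.0 and 0 CPM in members of the CD4 libraries. It was 55.6, 43.6 and 37.7 in those of the CD45 libraries, against 47.3 to 309 in the remaining T cells. Over all libraries Klre1 and Klrb1c stood at 10.4 and 5.48 CPM in members against 4.16 and 4.53, and Gzma at 23.1 against 110. Monocyte and macrophage transcripts were present, at 112 and 127 CPM (sum of 10 markers) in the members of the WT_CD4 libraries, 1881 and 3123 in those of Lag3KO_CD4 and 4784 to 5931 in the CD45 libraries. In the remaining T cells the same sum was 256 and 565, 704 and 300, and 3986 to 7931.

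Lag3, an inhibitory receptor for MHC class II on activated T cells, was higher in members than in remaining T cells in all 3 libraries that held it. Members held 111 Lag3 UMIs in WT_CD4 1 (479 CPM, in 58.2% of cells), 5 in WT_CD4 2 (90.7 CPM, in 33.3%) and 51 in WT_CD45 1 (218 CPM, in 59.0%). The remaining T cells of these libraries held 19.9, 6.33 and 14.4 CPM, in 3.46%, 1.36% and 3.92% of cells. Members of Lag3KO_CD4 1, Lag3KO_CD4 2, Lag3KO_CD45 1 and the library labelled WT_CD45 2 held 0. Taking 3 UMIs over the group as the least countable amount, Lag3 in Lag3KO_CD4 members was at least 76.6-fold lower than in WT_CD4 members, a bound that was 17.2-fold without WT_CD4 1 and 5.40-fold without Lag3KO_CD4 1, and in the remaining T cells at least 19.3-fold lower.

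To describe what else these cells express, UMIs were summed per library and class, and members were compared with remaining T cells of the same library in the 5 libraries with at least 10 members. edgeR called 593 of 6896 tested genes (8.6%) at an adjusted p under 0.05, 313 of them higher in members (4.54%) and 280 lower (4.06%). The genes of the rule were left out. The class was proposed from these same libraries, so these calls describe the cells the rule picks and are not independent evidence for them. Of the 593 genes, 524 had the same sign in all 5 libraries. Without WT_CD4 1, 320 genes were called.

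Ramp1 and Rilpl2, the other markers of the class, were not used by the rule but were named for it with these data known, so against the remaining T cells they are described without a test. Ramp1 stood at 527, 308, 375 and 125 CPM in the members of the CD4 libraries and at 453, 977 and 840 in those of the CD45 libraries. In the remaining T cells it was 150, 127, 205, 43.8, 183, 263 and 189 in the same order. Ramp1 was thus higher in members in 7 of 7 libraries, by 1.55 ± 0.14 (SE) on the log2 scale over the 5 fitted libraries. Rilpl2 stood at 436, 72.5, 362 and 225 in the CD4 libraries and at 342, 455 and 496 in the CD45 libraries, and was higher in members in 6 of 7. WT_CD4 2, with 9 members, was the exception, at 72.5 against 86.7 in its remaining T cells. The fitted difference of Rilpl2 was 1.71 ± 0.14 (SE). After thinning, 32.5% to 70.0% of members in the 5 larger libraries had a Ramp1 UMI and 32.1% to 56.7% a Rilpl2 UMI, against 16.7% to 29.8% and 11.4% to 18.2% of remaining T cells.

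Genes that work with Ramp1 changed little. Of the 7 genes of the CGRP receptor list, 5 were tested, and apart from Ramp1 itself Ramp3, another subunit of this receptor family, was the only one called. Ramp3 fell by 0.93 on the log2 scale (SE 0.24, edgeR adjusted p = 0.021), and missed the threshold without WT_CD4 1 (-1.04, adjusted p = 0.054) or without Lag3KO_CD4 1 (-1.02, adjusted p = 0.052). Calcrl, the receptor chain that RAMP1 needs, was scarce, at 0 to 21.5 CPM in members and 1.37 to 6.81 in remaining T cells (edgeR adjusted p = 0.24). Gnas, the G protein alpha subunit downstream, was at a log2 difference of -0.02 ± 0.11 (SE). In the list of RILP and Rab transport genes, 4 of 9 were tested, and none of the 3 besides Rilpl2 passed. Rab8a and Rab10, which RILP-like proteins bind, had log2 differences of -0.25 ± 0.13 and 0.40 ± 0.14 (SE).

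Cytokine genes were the list with the most higher members. Of 17 tested genes of 23 listed, 12 were higher (Il2, Il3, Il13, Il17a, Ifng, Csf1, Csf2, Tnf, Lta, Ltb, Tgfb1 and Areg) and only Il17f was lower. Their median log2 difference was 1.5, against -0.01 over all tested genes. Tnf, an inflammatory cytokine, stood at 963, 181, 299 and 375 CPM in the members of the CD4 libraries and at 141, 229 and 824 in those of the CD45 libraries. In the remaining T cells Tnf was between 45.4 and 101, so that the classes did not overlap (1.17% of tested genes were higher without overlap). The fitted difference of Tnf was 2.44 ± 0.34 (SE, edgeR adjusted p = 0.00012).

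Ifng, the interferon of type 1 helper cells, was found in a nearly constant share of members. It was present in 45.5%, 44.4%, 44.0% and 20.0% of members of the CD4 libraries, the last being 1 of 5 cells, and in 43.6%, 44.7% and 41.2% of members of the CD45 libraries. In the remaining T cells the shares were 8.29% to 20.7%. After thinning they were 25.0% to 34.3% of members in the 5 larger libraries and 6.63% to 12.4% of remaining T cells. The pooled Ifng level varied more, from 189 to 3142 CPM in members, and 416 of the 728 Ifng UMIs of WT_CD4 1 came from its highest cell. The fitted difference was 2.12 ± 0.38 (SE, edgeR adjusted p = 0.0012).

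Csf2, which encodes GM-CSF, a cytokine required for this disease model, was uneven between libraries. It stood at 984, 18.1, 282 and 950 CPM in members of the CD4 libraries and at 29.9, 30.0 and 16.2 in those of the CD45 libraries, where only 2 to 5 members carried it. In Lag3KO_CD4 2, 37 of the 38 Csf2 UMIs came from 1 cell, and WT_CD4 2 held 1 UMI. The fitted difference was 3.47 ± 0.37 (SE, edgeR adjusted p = 6.1e-06). In Lag3KO_CD4 1 it was carried by 31 of 100 members, against 4.10% of remaining T cells.

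Il2, the T cell growth factor, was in contrast the product of a few cells. Members held 2909, 0, 222 and 2249 CPM of Il2 in the CD4 libraries and 4.27, 5.45 and 16.2 in the CD45 libraries. Of the 674 UMIs in WT_CD4 1, 583 came from 1 cell, and only 4 of its 55 members carried Il2. Il2 was higher in members in 3 of the 5 fitted libraries (log2 difference 3.15 ± 0.51, SE, edgeR adjusted p = 0.00043), and was not called without WT_CD4 1 (2.08, adjusted p = 0.16). Il13, Il3 and Il22 were like it: 26 of 26, 63 of 64 and 73 of 76 UMIs in WT_CD4 1 lay in the highest cell. Without the highest cell of each gene in each class and library, an alternative added after the data were seen, Il2 kept its call (log2 difference 2.21, edgeR adjusted p = 0.0011), 10 of 15 cytokines still tested were higher, and Il3 and Il13 no longer had enough counts to be tested.

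**Figure D3:**
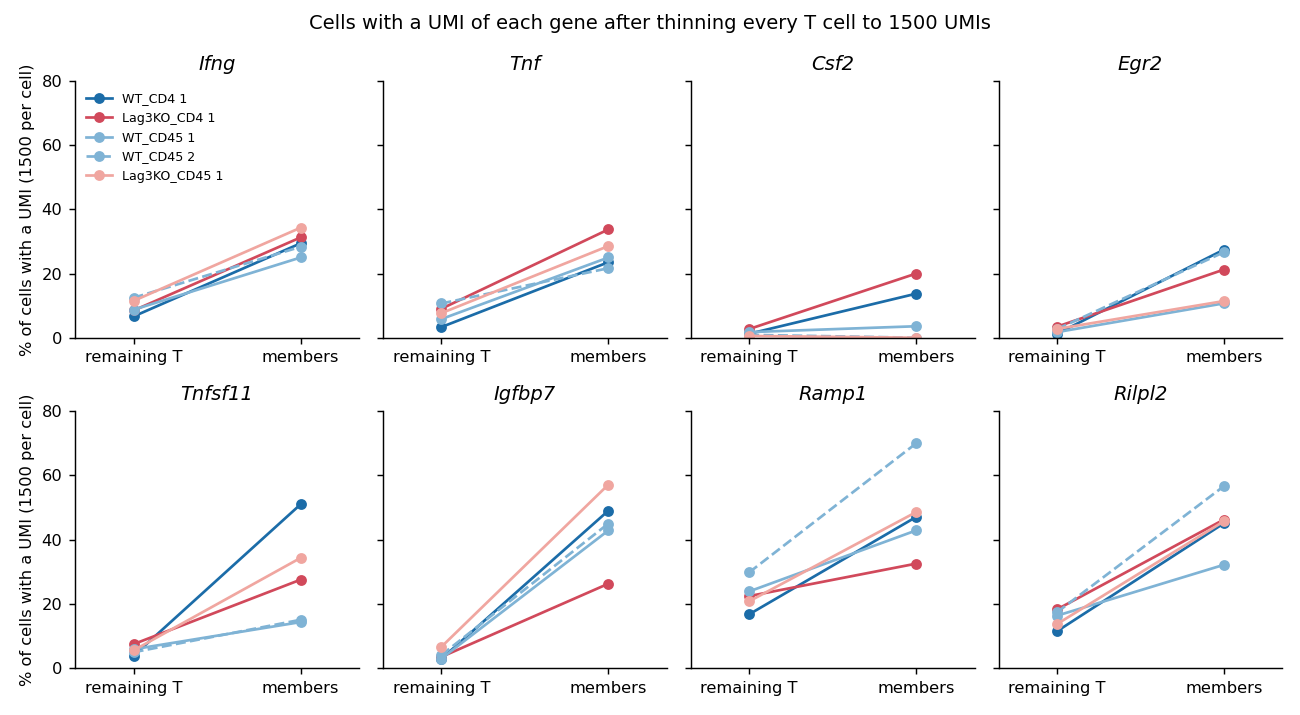
Percent of cells with a UMI of 8 genes (y axis) in remaining T cells and members (x axis) of the 5 libraries with at least 10 members, after every T cell was thinned to 1500 UMIs; each line is a library. Ifng, Tnf, Egr2, Tnfsf11, Igfbp7, Ramp1 and Rilpl2 were found in a larger share of members in all 5 libraries, and Csf2 in 3 of 5.

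Il17a, the signature cytokine of type 17 helper cells, stood highest in the CD45 libraries, at 295, 313 and 291 CPM in members against 95, 174 and 82.4 in remaining T cells. In WT_CD45 1, 54 of the 69 member UMIs came from 1 cell, and 10.3% of members carried Il17a against 11.8% of remaining T cells. These shares were 23.7% against 14.0% in the library labelled WT_CD45 2 and 29.4% against 6.13% in Lag3KO_CD45 1. In the CD4 libraries Il17a stood at 112, 18.1, 39.8 and 25 CPM in members, above the remaining T cells only in Lag3KO_CD4 1. The fitted difference was 0.86 ± 0.21 (SE, edgeR adjusted p = 0.014), and was not called without WT_CD45 1 (0.65) or without Lag3KO_CD45 1 (0.64). Tbx21, which encodes T-bet of type 1 cells, had a log2 difference of 0.27 ± 0.29 (SE) that did not pass. Of 16 tested lineage factors 3 were higher, among them Bhlhe40 and Runx1, and Gata3, Tcf7 and Lef1 were lower.

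Besides Ccl1, which the rule used, chemokines rose in part. Ccl3, Ccl4 and Xcl1, ligands that draw myeloid cells, effector T cells or XCR1-positive dendritic cells, were higher in members, and Ccl5 was lower, of 8 tested. Ccl4 stood at 250, 36.3, 277 and 75.0 CPM in members of the CD4 libraries and at 3369, 776 and 221 in those of the CD45 libraries, above the remaining T cells in 7 of 7 (log2 difference 2.93 ± 0.43, SE, edgeR adjusted p = 0.00017). The high value of WT_CD45 1 came from 1 cell with 718 Ccl4 UMIs, 91.1% of its total. Xcl1 was carried by few members, 12.8% or fewer in each library with at least 10 members, and by 0 of 100 in Lag3KO_CD4 1. Its fitted difference was 4.68 ± 0.54 (SE, edgeR adjusted p = 1.4e-05). Without the highest cells, Ccl4 and Xcl1 kept their calls, and Ccl3 did not (log2 difference 1.14, edgeR adjusted p = 0.088). Ccl3 also missed the threshold without WT_CD45 1 (1.36) and without WT_CD4 1 (1.80).

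The early response to T cell receptor signals was raised in part. Of 19 tested genes of 20 listed, 8 were higher (Nr4a1, Nr4a2, Nr4a3, Egr2, Irf4, Dusp2, Dusp4 and Nab2) and 0 lower, with a median log2 difference of 0.30. Egr2, a zinc finger factor induced through calcium and NFAT, stood at 246, 0, 131 and 150 CPM in members of the CD4 libraries and at 98.3, 193 and 172 in those of the CD45 libraries, against 5.36 to 19.4 in remaining T cells. WT_CD4 2 held no Egr2 UMI in its 9 members, and the other 6 libraries lay above every remaining class (3.81 ± 0.27, SE, edgeR adjusted p = 3.2e-08). Egr2 was found in 35.9% to 47.3% of members in the 5 larger libraries and in 1.15% to 4.66% of remaining T cells.

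Nr4a3, an orphan nuclear receptor induced by receptor signals, stood at 18.1 to 82.0 CPM in members and 4.38 to 15.8 in remaining T cells, without overlap (2.22 ± 0.32, SE, edgeR adjusted p = 0.00015). Nab2, a partner that restrains EGR factors, was also without overlap, at 73.5 to 127 against 17.7 to 54.1. The immediate early genes Fos, Junb and Cd69 and the related Egr1 were not part of this. Their log2 differences were -0.22 ± 0.10, -0.05 ± 0.10, -0.01 ± 0.12 and -0.16 ± 0.20 (SE), and none passed. Only 3 of the 19 genes were called without WT_CD4 1 and 4 of 18 without Lag3KO_CD4 1.

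**Figure D4:**
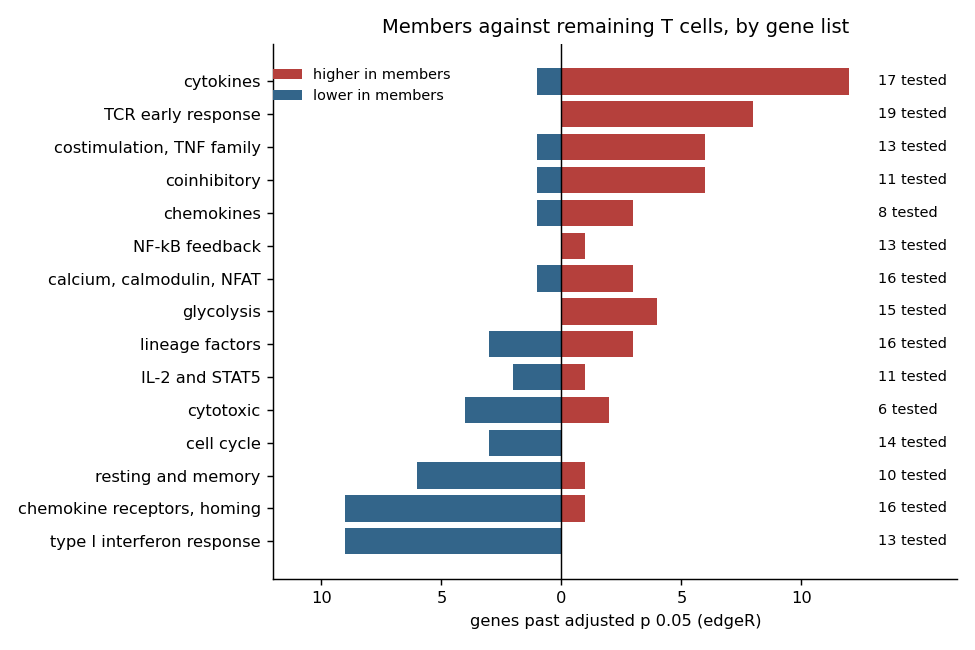
Number of genes past an edgeR adjusted p of 0.05 (x axis, higher to the right and lower to the left) in 15 gene lists (y axis), members against remaining T cells in 5 libraries, with the number tested at the right. Cytokines have 12 higher and 1 lower of 17, and type I interferon response genes 0 higher and 9 lower of 13.

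The calcium and calmodulin list, to which neurogranin's partner belongs, moved little. Of 16 tested genes, Calm3 (a calmodulin gene), Nfatc1 and Orai1 (the pore of the store-operated calcium channel) were higher and Camk2d lower. Calm3 stood at 355 to 825 CPM in members and 266 to 312 in remaining T cells, without overlap, a difference of 0.48 ± 0.10 (SE, edgeR adjusted p = 0.0043). Nfatc1 rose by 1.07 ± 0.18 (SE, edgeR adjusted p = 0.00082). Of 13 NF-kB genes only Nfkb1 was higher.

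Ligands and receptors of the tumour necrosis factor family were among the clearest surface genes. Of 13 tested costimulatory genes, Tnfrsf4, Tnfrsf9, Tnfsf8, Tnfsf9, Tnfsf11 and Tnfsf14 were higher and Cd27 was lower. The activation markers Icos, Tnfrsf18 and Cd40lg were not called. Icos and Tnfrsf18 were each lower in members in 6 of 7 libraries, and Cd40lg was higher in 4 of 7. Tnfsf11, which encodes RANKL, stood at 548, 127, 170 and 350 CPM in members of the CD4 libraries and at 111, 188 and 269 in those of the CD45 libraries, against 22.4 to 61.0 in remaining T cells. No value of Tnfsf11 overlapped between the classes (2.29 ± 0.27, SE, edgeR adjusted p = 1.7e-05). Tnfrsf9, which encodes 4-1BB, rose by 1.65 ± 0.17 (SE, edgeR adjusted p = 4.1e-06). Cd27, a receptor of naive and memory T cells, fell by 2.03 on the log2 scale (SE 0.32).

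Inhibitory receptors rose beside Lag3. Of 11 tested coinhibitory genes, Lag3, Pdcd1, Havcr2, Cd200, Cd160 and Cd5 were higher and Vsir lower, while Ctla4 had a log2 difference of 0.13 ± 0.18 (SE). Cd160, a receptor for HVEM, stood at 69.1, 18.1, 43.6 and 25 CPM in members of the CD4 libraries and at 222, 114 and 178 in those of the CD45 libraries. In the remaining T cells it was 1.46 to 17.3, so that the classes did not overlap (3.42 ± 0.31, SE, edgeR adjusted p = 9.6e-07). Havcr2, which encodes TIM-3, was without overlap as well, at 30.2 to 75.0 against 5.13 to 24.7. Pdcd1, which encodes PD-1, rose by 1.04 ± 0.21 (SE, edgeR adjusted p = 0.0027).

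Genes of resting and circulating T cells were lower. Of 10 tested resting and memory genes 6 were lower, and of 16 tested chemokine receptor and homing genes 9 were lower, among them Ccr2, Ccr4, Cxcr3, Cxcr4, S1pr1, Itgb1 and Itgb7. Both lists had 1 higher gene, Ltb and Ccr8. Ccr2, a receptor of CNS-infiltrating effector cells, stood at 73.4, 109, 90.9 and 175 CPM in members of the CD4 libraries and at 89.8, 54.5 and 32.3 in those of the CD45 libraries. Its values in remaining T cells were 175 to 270, without overlap (0.943% of tested genes were lower without overlap), and the fitted difference was -1.64 ± 0.19 (SE, edgeR adjusted p = 1.4e-05). S1pr1, which guides T cells out of tissue, was without overlap too, at 0 to 42.8 against 47.5 to 109. Cxcr3 fell by 2.15 (SE 0.24) and Klf2, the factor that drives S1pr1, fell by 1.48 (SE 0.17). Ccr8, the receptor for CCL1, was scarce in both classes, at 0 to 34.5 CPM in members and 1.44 to 19.9 in remaining T cells (1.48 ± 0.43, SE, edgeR adjusted p = 0.036). It was not called without WT_CD4 1 (1.19), without WT_CD45 1 (1.28) or without the library labelled WT_CD45 2 (1.49).

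Type I interferon response genes were lower together. All 13 listed genes had a negative difference and 9 passed (median -0.76). Ly6a, which encodes Sca-1, stood at 743 to 1324 CPM in members and 1328 to 2256 in remaining T cells, without overlap (-1.02 ± 0.09, SE, edgeR adjusted p = 7.4e-07). Bst2, also called tetherin, differed by -0.76 ± 0.12 (SE). The count was 5 of 13 without WT_CD4 1 and 5 of 13 without Lag3KO_CD4 1.

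Other programmes moved less. All 15 glycolysis genes had a positive difference with a median of 0.35, but only 4 passed, among them Pgam1 (0.68 ± 0.11, SE, edgeR adjusted p = 0.00049). Of 14 cell cycle genes 3 were lower and 0 higher, and Mki67 was at -0.04 ± 0.39 (SE). The cytotoxic list was split: Nkg7 and Ctsw were higher, and Gzma, Gzmb, Gzmk and Ccl5 were lower. Nkg7, which encodes a granule membrane protein, stood at 1614, 725, 1682 and 2499 CPM in members of the CD4 libraries and at 1603, 2156 and 1729 in those of the CD45 libraries. All values but that of WT_CD4 2 lay above the 593 to 755 of the remaining T cells (1.23 ± 0.08, SE, edgeR adjusted p = 2.9e-08). In the list of interleukin 2 and STAT5 genes, Il2rb was higher and Socs3 and Bcl2 lower, of 11 tested.

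The genes with the largest increase came from outside these lists for the most part. Among called genes with the same sign in all 5 libraries and at least 50 CPM, which leaves out Xcl1 and Il2, the 15 largest were Crtam, Penk, Igfbp7, Egr2, Cnih2, Csf2, Cd160, Rgs16, Pacsin1, Fhl2, Ccl4, Il1r2, Lgals7, Tnf and Tff1. Igfbp7, a secreted binding protein of insulin-like growth factors, stood at 557, 163, 265 and 575 CPM in members of the CD4 libraries and at 338, 430 and 948 in those of the CD45 libraries. Remaining T cells held 4.38 to 43.3, so that every member value was the higher by far (3.83 ± 0.24, SE, edgeR adjusted p = 1.5e-08). Igfbp7 was found in 41.0% to 73.5% of members in the 5 larger libraries and in 2.61% to 8.59% of their remaining T cells.

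Rgs16, a brake on G protein signalling, was without overlap at 90.7 to 449 against 8.68 to 49.0 CPM (3.32 ± 0.22, SE). Il1r2, the decoy receptor for interleukin 1, stood at 75.0 to 419 against 12.2 to 88.9 (2.81 ± 0.32, SE). Penk, which encodes the enkephalin precursor, was carried by few members, 3.95% to 11.8% in the 5 larger libraries, against 0% to 1.04% of their remaining T cells (4.08 ± 0.38, SE). Crtam, an adhesion receptor, reached 79.0 and 162 CPM in members of the library labelled WT_CD45 2 and of Lag3KO_CD45 1, was 0 to 21.6 in those of the other 5, and was 0 to 2.88 in remaining T cells. Tff1, a secreted trefoil peptide, stood at 145 to 780 against 6.71 to 107, without overlap. The 10 largest decreases were Cxcr3, Gzma, Cd27, Slamf6, S100a8, Rasgrp2, Izumo1r, Ccr2, Socs3 and S100a9. S100a8 and S100a9 are neutrophil transcripts and differed by -1.81 ± 0.35 and -1.56 ± 0.27 (SE) on the log2 scale.

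Against Ikzf2 positive T cells of the same libraries, members were further from regulatory T cells. edgeR called 673 of 5780 genes (11.6%), 323 higher (5.59%) and 350 lower (6.06%), and 380 without WT_CD4 1. The Ikzf2 condition separates these classes, so a lower Treg list is partly built in. Of 8 tested Treg genes, 6 were lower and Capg was higher. Foxp3 was at 0 to 2.72 CPM in members and 4.43 to 162 in the Ikzf2 positive cells, and Itgae, Klrg1 and Il2ra differed by -2.79 ± 0.47, -3.77 ± 0.47 and -1.48 ± 0.20 (SE). Izumo1r, which encodes the folate receptor 4 of Treg cells, fell by 3.91 (SE 0.22). The cytokine list gave 12 higher and 1 lower of 16, with Ifng at 3.85 ± 0.55 and Il17a at 2.12 ± 0.28 (SE). The costimulatory list was split, with 6 of 13 higher, among them Cd40lg (2.02 ± 0.19, SE), and 5 lower. The lower ones included Tnfrsf4 (-1.32 ± 0.20), Icos (-0.99 ± 0.19) and Tnfrsf9 (-0.44 ± 0.12, SE), so that these receptors were higher in the Ikzf2 positive cells than in members. Il10, an anti-inflammatory cytokine, fell by 3.79 (SE 0.70), and was not called without the library labelled WT_CD45 2 (-2.30).

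Several of the genes above also set members apart from the Ikzf2 positive cells. Among the 10 higher genes with the smallest p were Nkg7, Ctsw, S100a4, Tff1, Rgcc, Cd160, Tnfsf11 and Igfbp7. Tnfsf11 differed by 2.93 ± 0.26 and Rgcc, a regulator of cell cycle kinases, by 2.63 ± 0.22 (SE). Among the lower ones were Izumo1r, Cd27, Ifi27l2a, Tnfrsf18, Camp, Slamf6, Glrx, Ccl5 and Samhd1. Interferon genes were lower against this class as well, in 10 of 13.

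Members with only Ccl1 and members with only Nrgn were then compared, since the rule accepts either. Only 2 libraries held at least 10 cells of both kinds, so the planned fit was not made, and the 6 libraries with at least 3 of both were used, a choice made after the data were seen. Their Ccl1-only cells numbered 16 in WT_CD4 1, 4 in WT_CD4 2, 17 in Lag3KO_CD4 1 and 3 to 5 in the CD45 libraries. edgeR called 47 of 1425 genes (3.3%), 25 higher in Ccl1-only cells (1.75%) and 22 lower (1.54%). Of the 47, 23 had the same sign in all 6 libraries, and 24 were called without WT_CD4 1.

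Cytokines and chemokines went with Ccl1. Of 11 tested cytokines 7 were higher in Ccl1-only cells and 0 lower, and of 4 tested chemokines Ccl3, Ccl4 and Xcl1 were higher. Ccl3 and Ccl4 were each higher in 5 of 6 libraries, but Xcl1 in only 2 of 6. Without the highest cells, none of these chemokines was still tested. Tnf stood at 3219, 662 and 905 CPM in the Ccl1-only cells of WT_CD4 1, WT_CD4 2 and Lag3KO_CD4 1 and at 471, 384 and 4014 in those of the CD45 libraries. In the Nrgn-only cells it was 121, 0, 79.6, 101, 179 and 252, lower in 6 of 6 libraries (3.27 ± 0.36, SE, edgeR adjusted p = 1.2e-06). Nr4a1 was likewise higher in 6 of 6 (2.87 ± 0.39, SE, edgeR adjusted p = 3.1e-05). Il2 and Csf2 were higher in Ccl1-only cells in 3 of 6 libraries. Csf2 reached 3496 and 1314 CPM in WT_CD4 1 and Lag3KO_CD4 1 but was 0 in the Ccl1-only cells of all 3 CD45 libraries. Ifng was higher in 5 of 6, at up to 11186 CPM in WT_CD4 1, and without the highest cells its difference was 2.98 (edgeR adjusted p = 1.4e-06). The count of higher cytokines was 3 without WT_CD4 1, 3 without Lag3KO_CD4 1 and 4 without the highest cells.

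Other genes were higher in Nrgn-only cells. Tff1 stood at 486, 1049 and 221 CPM in the Nrgn-only cells of the 3 CD4 libraries and at 218, 238 and 644 in those of the CD45 libraries. In the Ccl1-only cells it was 32.5, 66.2 and 0 and then 0 in each CD45 library, lower in 6 of 6 (fitted difference -4.64 ± 0.51, SE, edgeR adjusted p = 1.2e-06). Igfbp7 was lower in the Ccl1-only cells in 5 of 6 libraries (-2.61 ± 0.45, SE, edgeR adjusted p = 0.00061), and Ramp1 likewise in 5 of 6 (-1.13 ± 0.29, SE, edgeR adjusted p = 0.028), a call that was lost in 5 of the 6 fits that left out 1 library, Lag3KO_CD4 1 being the exception (values -1.13 to -0.94). Stmn1, which encodes stathmin of dividing cells, was lower in 6 of 6. The macrophage gene C1qa also fell, by 2.89 (SE 0.50), and 2 of 4 tested monocyte and macrophage markers were lower in Ccl1-only cells. Their part in the other differences was not tested.

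**Figure D5:**
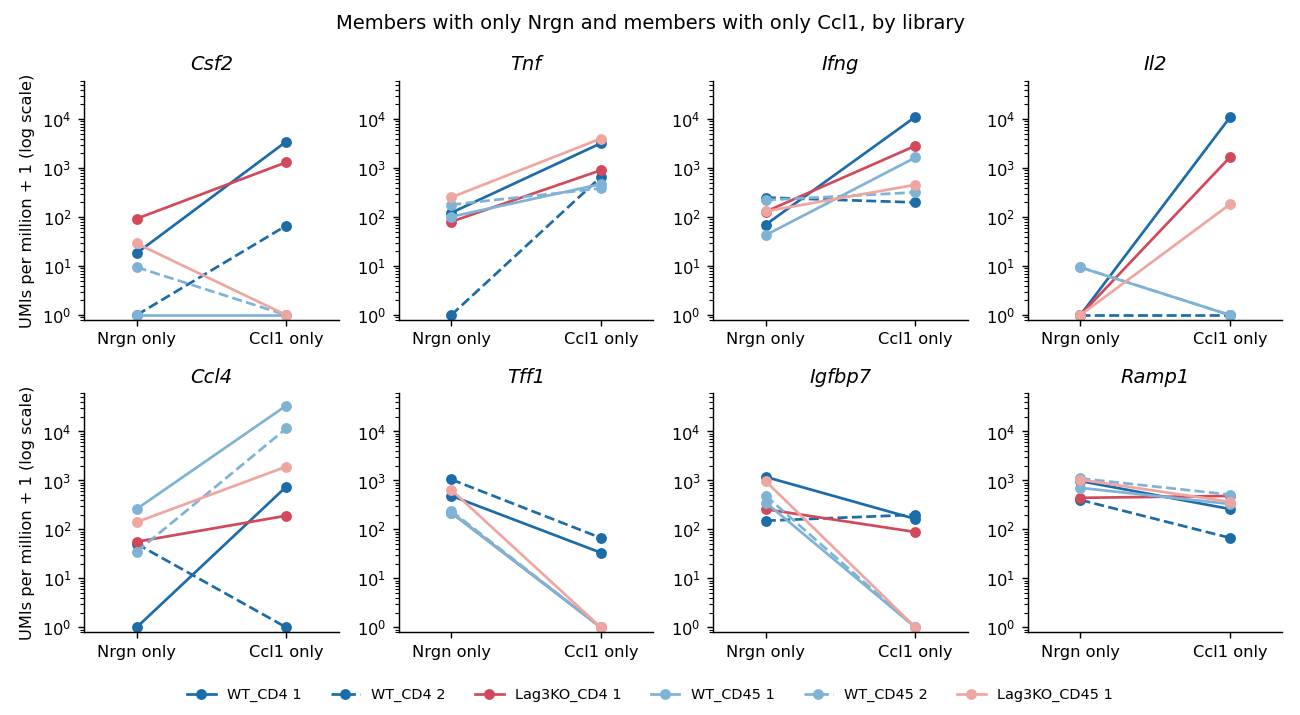
CPM + 1 (y axis, log scale) of 8 genes in members with only Nrgn and members with only Ccl1 (x axis), 1 line per library, in the 6 libraries with at least 3 cells of both kinds. Tnf is higher in Ccl1-only cells in 6 of 6 libraries and Tff1 lower in 6 of 6, while Csf2 and Il2 rise in 3.

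By genotype, no gene was called in members over both sorts, not even Lag3. Members held 111 Lag3 UMIs in WT_CD4 1 and 51 in WT_CD45 1, against 0 in the LAG3-deficient libraries. The lack of calls therefore does not exclude large differences. edgeR tested 3436 genes in the 3 libraries labelled as control, among them that labelled WT_CD45 2 with 0 Lag3 UMIs in its members, and the 2 LAG3-deficient libraries with at least 10 members, with the sort as a term, and called 0 (0.0%). DESeq2 also called 0, and 144 genes had an unadjusted p below 0.05. Without the library labelled WT_CD45 2 the count was 0 as well, and without Lag3KO_CD45 1, which leaves Lag3KO_CD4 1 as the only LAG3-deficient library, it was 54. Csf2 came closest among the cytokines, at 984 CPM in members of WT_CD4 1, 29.9 in WT_CD45 1 and 30.0 in that labelled WT_CD45 2, against 282 and 16.2 in LAG3-deficient members (-1.63 ± 0.26, SE, edgeR adjusted p = 0.12). Ifng was at 3142, 291 and 237 in the same order, against 557 and 189 (-1.51 ± 0.38, SE, edgeR adjusted p = 0.90). Without Lag3KO_CD45 1 their differences were -1.75 and -2.44. Without the count filter both passed, among 28 called genes. Ccl1 and Nrgn themselves differed by -0.15 ± 0.40 and -0.06 ± 0.23, and Ramp1 and Rilpl2 by -0.08 ± 0.29 and 0.05 ± 0.21 (SE). Without the library labelled WT_CD45 2 the differences were -1.62 for Csf2, -1.68 for Ifng, -0.12 for Ccl1, 0.03 for Nrgn, 0.17 for Ramp1 and 0.10 for Rilpl2, and none passed. In data simulated with the same libraries, 11.9% of genes changed 2-fold and 89.4% of genes changed 4-fold were found, so 2-fold differences were mostly missed. The simulation took the labels and the fitted spread as given. Lag3, with 0 UMIs in the LAG3-deficient members, was not called in the measured data, so the share found there may be lower than simulated.

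Within the CD4 sort, where all 4 libraries matched their labels, 5 of 2204 genes were called (0.227%), although WT_CD4 2 and Lag3KO_CD4 2 held only 9 and 5 members. Lag3 and Tpm3 were lower in LAG3-deficient members (0.0907% of genes) and Lyz2, Tyrobp and Tpm3-rs7 higher (0.136%). Tpm3 and Tpm3-rs7 are near-identical copies whose reads can be split between them, so both are uncertain. In members Tpm3-rs7 stood at 8.63 and 0 CPM in the controls and 303 and 325 in the LAG3-deficient libraries, and the remaining T cells showed the same split, 4.32 and 6.82 against 292 and 319. Lyz2, which the rule bounds, was at 8.63 and 0 against 318 and 2774, where 111 UMIs lay among the 5 members of Lag3KO_CD4 2, and Tyrobp, another myeloid gene, at 8.63 and 18.1 against 165 and 450. The sum of monocyte and macrophage markers given above moves with both, and its part was not tested. Without WT_CD4 2 the count was 25, without Lag3KO_CD4 2 it was 23, without the highest cell of each gene 3, and DESeq2 called 1. Without Lag3KO_CD4 1, Lag3 (-8.22), Tyrobp (5.27), Tpm3 (-3.09) and Tpm3-rs7 (5.40) missed the threshold at log2 differences near those of all 4 libraries (-9.11, 4.50, -3.48 and 5.42), and without WT_CD4 1 Tyrobp (3.91) and Tpm3 (-3.25) did.

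Whether the genotype difference of members differs from that of remaining T cells was tested as an interaction in the same 5 libraries. edgeR called 0 of 6896 genes (0.0%) and DESeq2 0, while 202 genes had an unadjusted p below 0.05 in edgeR. Leaving out the library labelled WT_CD45 2 also gave 0 calls, and leaving out Lag3KO_CD45 1 gave 6.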

How the data were processed

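Cells of the central nervous system were profiled with 10x 3′ v2 chemistry. The deposited matrices hold UMI counts per gene and barcode; the authors made these counts with tools that the submitters' processing notes name as Cell Ranger and Seurat, with the builds GRCm38 and mm10. The matrix headers of the CD4 files give software version 3.0.2. The level that free RNA can give was read from myeloid barcodes without Cd3 UMIs. This choice leaves out barcodes that took up T cell RNA, so the level may be too low.

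Groups follow the labels. The members and the gene lists were chosen with earlier results of these data known. Counts were summed per library and class, and 5 libraries with at least 10 members were fitted with edgeR 4.0.16 (TMM scaling, filterByExpr, quasi-likelihood F-test, Benjamini-Hochberg adjustment over all tested genes, calls at an adjusted p of 0.05) in R 4.3.3, with the library as a block between classes and the sort as a term between genotypes. The fit within the CD4 sort used all 4 CD4 libraries. SE is the log2 difference divided by the square root of F. Genes of the rule were left out of tests between classes. Shares were compared by two-sided exact permutation within sort, and their exact binomial intervals came from scipy 1.17.1. The class genes named outside the lists were, among called genes with the same sign in every fitted library and at least 50 CPM, the 15 largest increases and 10 largest decreases, and in the other comparisons up to 10 called genes each way by p. Some listed genes are not reported here by name.

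In data simulated on the tested genes, with 200 genes changed, the comparison of members with remaining T cells recovered 62.7% of the 2-fold changes and 93.9% of the 4-fold changes, with 7 false calls among 135. Alternatives were DESeq2 1.42.0, median-ratio scaling, no count filter, other UMI thresholds, T cells thinned to 1500 UMIs, marked doublets removed (Scrublet in scanpy 1.11.5 by the highest scores of each library; 3 members were marked, all in Lag3KO_CD4 1), the sort in place of the library block, each library left out, and, added after the data were seen, the highest cell of each gene left out.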

Additional observations from a re-analysis of the deposited data

How the results depend on the processing

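No paired analysis was possible because the labels give no replicate numbers that tie libraries of different groups together. The share difference by genotype turned positive with a threshold of 1 UMI (0.265 points) and with thinned cells (0.953), and ranged from -4.94 to 3.71 with 1 library left out. Calls of members against remaining T cells were 277 with DESeq2, 332 with thinned cells and 320 to 510 with 1 library left out. Against Ikzf2 positive cells they were 299, 308 and 380 to 550. For Ccl1-only against Nrgn-only members they were 71 without the count filter, 10 with thinned cells and 24 to 44 with 1 library left out. By genotype in members, 28 genes were called without the count filter and 0 to 54 with 1 library left out. Within the CD4 sort the calls were 23 without the filter, 1 with DESeq2, 8 with at least 3 UMIs, 0 with thinned cells, 3 without the highest cells and 6 to 25 with 1 library left out. The interaction gave 7 without the filter, 2 with thinned cells and 0 to 6 with 1 library left out. The genotype difference of Il2, -3.25 and not called, ranged from -3.66 to 1.60 with 1 library left out, being 1.60 without WT_CD4 1 and 1.55 without Lag3KO_CD4 1. No other gene named by rule changed sign: of 1365 values for 107 genes against remaining T cells 1208 kept their call, and of 1317 for 114 genes against Ikzf2 positive cells 1205 did. Where a count moved, the cause was not tested. Thinned cells hold fewer UMIs, and a fit with 1 library left out holds fewer libraries. Members numbered 9 in WT_CD4 2 and 5 in Lag3KO_CD4 2, which limits every value of those libraries.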

Other observations

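Ccl1 and Nrgn were not limited to the cells the rule accepts. Ikzf2 positive T cells reached 2 UMIs of the pair in 22 of 464 cells of WT_CD4 1 (4.74%), 4 of 332 of WT_CD4 2 (1.20%), 30 of 213 of Lag3KO_CD4 1 (14.1%) and 3 of 298 of Lag3KO_CD4 2 (1.01%). These shares followed those of the eligible T cells in the same CD4 libraries, 5.46%, 1.21%, 13.6% and 0.471%. In the CD45 libraries they did not: 4 of 59 (6.78%), 5 of 86 (5.81%) and 4 of 70 (5.71%) Ikzf2 positive cells stood against 20.3%, 28.3% and 17.3% of eligible cells. The difference between sorts in this respect was not tested.

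T cells with a CD8 transcript reached 2 UMIs in 6 of 76, 1 of 42, 10 of 67 and 2 of 78 cells of the CD4 libraries and in 7 of 75, 12 of 106 and 7 of 89 of the CD45 libraries. Barcodes over the myeloid limit that also held Cd3 UMIs, set aside by the rule, reached it in 31 of 218, 42 of 208 and 42 of 204 in the CD45 libraries, and in 0 of 18, 0 of 8, 4 of 27 and 1 of 22 in the CD4 libraries. Members held 29.9%, 53.0% and 39.2% of all Ccl1 UMIs in the CD45 libraries, and 78.9% to 91.0% in the CD4 libraries.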
